A study of Mus musculus with 5 samples.

Results

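Scavenger receptors were followed while mouse bone marrow-derived macrophages became osteoclasts, the multinucleated cells that resorb bone. The set held 10 genes, Msr1, Marco, Mrc1, Cd36, Olr1, Cd163, Stab1, Scarb1, Scarb2 and Cd68, out of 22180 genes named on the arrays. Members were chosen by name, and each was read from the 1 array row whose platform annotation gives that gene alone. The cells came from wild-type mice aged 10 weeks and grew on plastic in 20 ng/ml M-CSF, on which macrophages depend to survive, with 30 ng/ml RANKL, the ligand that commits them to become osteoclasts. One Affymetrix array was made at each of day 0 (the macrophages), days 1, 2 and 3 (differentiating cells) and day 5 (cells called mature osteoclasts in the labels), 5 arrays in all. The labels do not say how many mice the marrow came from. No culture kept without RANKL was part of these samples, so time in culture and RANKL cannot be told apart.

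Scavenger receptors are cell surface or lysosomal proteins that bind modified lipoproteins, microbes, dying cells and worn-out glycoproteins and carry them into the cell for degradation. They are grouped into classes by structure and not by descent, so members of different classes share ligands but little sequence. Macrophages carry many of them, and several are used as markers of macrophage state, while the osteoclast arises from the same precursor and turns its endocytic and lysosomal machinery towards bone.

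Values are log2 expression values as deposited, and a difference is the later day minus the earlier day. With 1 array per day there was no replicate spread and no test, so each difference compares 2 arrays, and precision is limited by their number. A gene was called measured at an average of at least 4.89, the median of all row means, which kept 12049 genes and all 10 scavenger receptors. It was counted when 2 arrays differed by 1 or more on the log2 scale, which is 2-fold. As a yardstick for the size of a difference, the same difference was compared between 2 rows of one gene. Over 500 genes this gave an SD for 1 row of 0.32 for day 1 minus day 0 and 0.42 for day 5 minus day 0, which does not cover the spread between cultures. It was 0.22 for day 5 minus day 3. The SD of all measured genes was 0.24 in that comparison and 0.78 for day 5 minus day 0. The yardstick thus grew with the changes and is not measurement noise alone. Array medians lay between 4.88 and 4.92. Osteoclast markers followed the labels, with 9 of 9 at least 2-fold higher at day 5 than at day 0, among them Acp5 (5.76), Ctsk (6.75), Mmp9 (5.59), Dcstamp (5.37) and Calcr (6.11). Of all measured genes 6.78% were counted as higher there. The macrophage markers Csf1r (-0.14), Adgre1 (-0.99), Cd14 (-0.47) and Itgam (-0.76) were within 2-fold of day 0 at day 5. Cx3cr1 (-3.46) and Fcgr1 (-2.54) were far below day 0. Adgre1 lay at the edge, and it was past 2-fold below day 0 at days 1, 2 and 3 (-1.24, -1.75 and -1.01).

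Most scavenger receptor transcripts were at their highest in the macrophages and were lower after a single day of RANKL. At day 1, 7 of the 10 were at least 2-fold below day 0 and 0 were as far above, while 4.17% of all measured genes were counted as lower and 2.91% as higher. The median difference of the 10 genes was -1.19, against 0 over all measured genes. The 3 receptors within 2-fold were Scarb2 (-0.78), Scarb1 (-0.38) and Cd68 (-0.25), of which Scarb2 and Cd68 are proteins of the lysosome membrane. At day 5, 6 of the 10 were at least 2-fold below day 0 and 0 above, with a median of -1.15, while 6.56% of measured genes were counted as lower and 6.78% as higher. Between day 1 and day 5 none of the 10 differed by 2-fold, while 6.30% of measured genes were counted as higher and 6.73% as lower at day 5, and 0 of 10 is near those shares. Their median over that interval was 0.06, and it was -0.22 when day 3 replaced day 5. It was -0.27 after scaling to the median level of reference genes, and 0.10 after centring on their median deviation from their own means. In bulk RNA of this kind, fewer cells of a type and less RNA per cell cannot be told apart. The comparisons against day 0 share one array, and so do those with day 1.

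**Figure D1:**
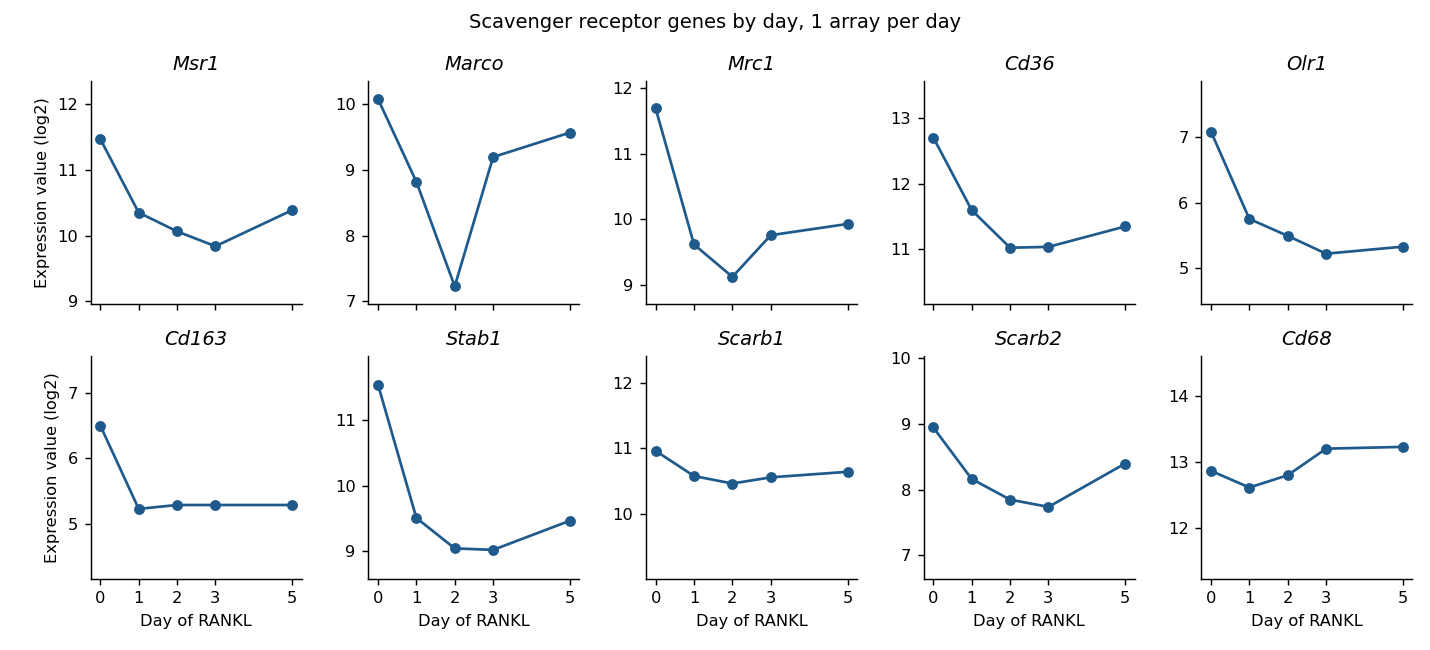
Log2 expression value (y axis) of each scavenger receptor gene by day of RANKL (x axis), with 1 point per array and lines joining the days. Every panel spans the same number of log2 units, centred on its own gene, and 9 of the 10 genes have their highest point at day 0.

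All of the genes but Cd68 lay below their day 0 value on every later array, that is 9 of 10 where 24.1% of measured genes did so. At day 2, 8 of the 10 were at least 2-fold below day 0 and 0 above, while 5.25% of measured genes were counted as lower and 5.18% as higher. At day 3 the count was 7 below and 0 above, while 7.50% of measured genes were counted as lower and 7.29% as higher. The lowest array was day 1 for 2 of the 10, day 2 for 4, day 3 for 4 and day 5 for 0. Of all measured genes 19.5% were lowest at day 1, 15.2% at day 2, 20.4% at day 3 and 17.8% at day 5, so 0 of 10 at day 5 is not far from that share. From day 3 to day 5 the values of 9 genes moved up and that of Cd163 was tied, with a median of 0.24 and a range up to 0.66. Over all measured genes 5513 moved up and 5421 down in that step. These last differences are small: none of the 10 passed 2-fold, and 0.158% of measured genes were counted as higher at day 5 than at day 3. The yardstick SD for 1 row was 0.22 here, below the differences of Scarb2 (0.66), Msr1 (0.55), Stab1 (0.44), Marco (0.37) and Cd36 (0.31).

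**Figure D2:**
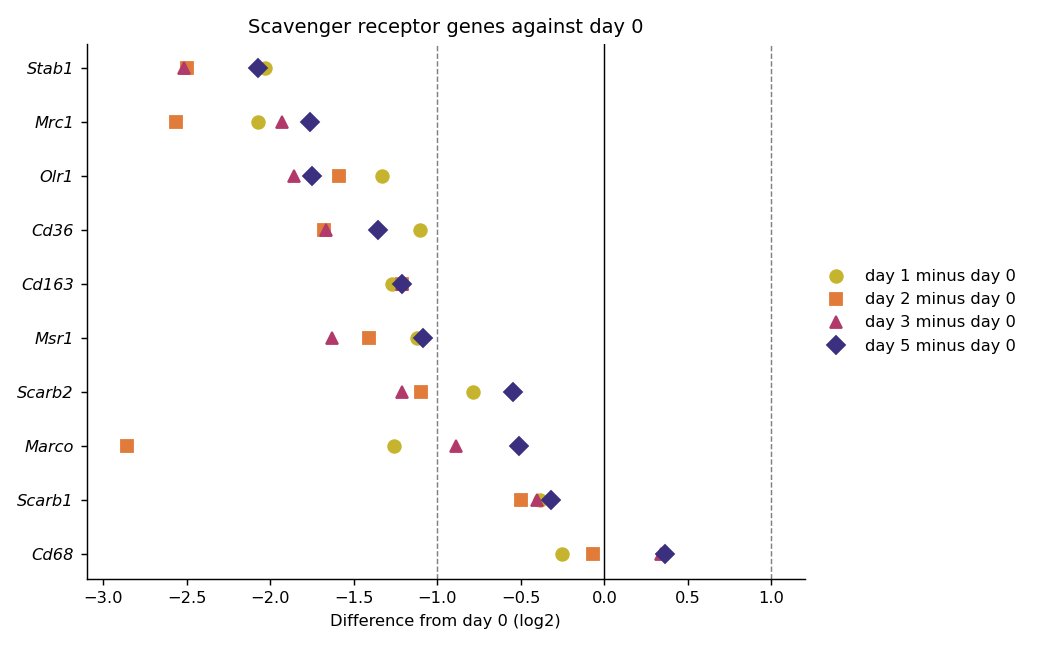
Difference of each scavenger receptor gene from day 0 (x axis, log2) at days 1, 2, 3 and 5, with 1 marker per array and genes ordered by the day 5 difference. Dashed lines mark 2-fold either way, and markers can lie over each other, as for Cd163. Stab1 (-2.08) is lowest at day 5, with Mrc1 (-1.76) and Olr1 (-1.75) next and level, and Marco (-2.86) is lowest at day 2.

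The class A receptors, trimeric proteins with a collagen-like stalk, parted ways after day 1. Msr1, the macrophage receptor for acetylated and oxidised LDL, read 11.47, 10.35, 10.06, 9.84 and 10.39 at days 0, 1, 2, 3 and 5. Its level at day 5 was 47.2% of that at day 0, a difference of -1.08, and nearly the same as at day 1 (0.04 above it). The value at day 3 was the lowest, and 338 of the measured genes (2.81%) lay as far below day 0 there as Msr1 did. Marco, a receptor for bacteria and inhaled particles, read 10.08, 8.82, 7.23, 9.20 and 9.57 over the same days. The day 2 array held a deep trough between high values on both sides. Marco was 1.59 lower at day 2 than at day 1, where only 7 of the measured genes (0.0581%), Marco included, were as far down, and 0.556% were at least 2-fold lower. It was then 1.97 higher at day 3 than at day 2, as far up as 28 genes (0.232%), where 2.08% of measured genes passed 2-fold upwards. At day 5 it stood at 70.1% of day 0, a difference of -0.51, which is close to the yardstick. The trough rests on the single day 2 array. The promoter of Marco is shown because this gene had the widest range of the 10 (2.86 between its highest and lowest array). It runs from 250 bases before to 50 bases after the transcription start, 5′ to 3′ on the gene's strand, from RefSeq on build GRCm38.p6, with capitals marking letters of the motifs described further on.
Marco promoter (chr1:120504975-120505274, - strand): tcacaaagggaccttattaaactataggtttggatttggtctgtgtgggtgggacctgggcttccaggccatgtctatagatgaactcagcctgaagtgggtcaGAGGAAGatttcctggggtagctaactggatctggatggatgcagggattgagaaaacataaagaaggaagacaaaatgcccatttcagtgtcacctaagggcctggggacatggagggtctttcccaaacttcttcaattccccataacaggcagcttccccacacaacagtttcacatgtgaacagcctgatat

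Mrc1 and Stab1 were the receptors furthest below day 0 at day 1. At day 5 Stab1 was furthest below, and Mrc1 (-1.76) was level with Olr1 (-1.75). Mrc1, the mannose receptor that takes up glycoproteins with mannose ends and collagen fragments, read 11.69 at day 0, 9.61 at day 1, 9.12 at day 2, 9.76 at day 3 and 9.93 at day 5. Its level at day 1 was 23.8% of day 0 (-2.07), and at day 5 it was 29.5% (-1.76). At day 1 only 56 of the measured genes (0.465%) lay as far below day 0. Stab1, a class H receptor that clears acetylated LDL and the matrix protein SPARC, read 11.54, 9.51, 9.05, 9.02 and 9.47. It was at 24.5% of day 0 at day 1 (-2.03) and at 23.7% at day 5 (-2.08), and day 5 differed from day 1 by -0.04. The differences of these 2 genes at day 1 were more than 6 times the yardstick (6.48 for Mrc1 and 6.35 for Stab1). The promoter of Mrc1 is shown as that of a gene with one of the 2 largest first-day differences.
Mrc1 promoter (chr2:14229164-14229463, + strand): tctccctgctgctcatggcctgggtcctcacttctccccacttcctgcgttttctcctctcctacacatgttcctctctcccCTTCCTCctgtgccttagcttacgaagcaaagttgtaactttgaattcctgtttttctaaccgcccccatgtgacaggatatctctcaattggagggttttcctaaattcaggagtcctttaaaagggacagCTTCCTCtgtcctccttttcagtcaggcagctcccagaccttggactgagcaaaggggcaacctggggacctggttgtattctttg

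The class B receptors, which share a hairpin fold with a membrane anchor at each end, differed in how far they moved. Cd36, the fatty acid translocase and receptor for oxidised LDL, read 12.70, 11.60, 11.02, 11.04 and 11.35 at days 0, 1, 2, 3 and 5. It was lower at day 5 by 1.35 (39.1% of day 0) and already lower at day 1 by 1.10. Scarb2, which carries glucocerebrosidase to the lysosome, read 8.95, 8.16, 7.85, 7.74 and 8.40. It passed 2-fold below day 0 at day 2 (-1.10) and day 3 (-1.21) but not at day 1 or day 5 (-0.55). Its step up from day 3 to day 5 was matched by 121 of the measured genes (1.00%). Scarb1, the HDL receptor that takes up cholesteryl esters, was the flattest of the 10, with 10.96, 10.58, 10.46, 10.56 and 10.64. Its difference at day 5 was -0.32, less than the yardstick SD of 0.42.

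Olr1 and Cd163 lay low on the scale, where background handling narrows differences. Olr1, a C-type lectin that binds oxidised LDL, read 7.08 at day 0, 5.75 at day 1, 5.49 at day 2, 5.22 at day 3 and 5.33 at day 5. It was 1.33 lower at day 1 and 1.75 lower at day 5, at 29.7% of the day 0 value. Cd163, best known as the receptor for haemoglobin bound to haptoglobin, read 6.50 at day 0 and 5.23 at day 1. It then read 5.29 on each of the arrays of days 2, 3 and 5, an exact tie of the kind that median polish gives. Its difference at day 5 was -1.21, and its later values lay not far above the level filter. With the filter set at the 75th percentile of rows (7.11), Olr1 and Cd163 were the 2 members that were not counted.
Olr1 promoter (chr6:129507116-129507415, - strand): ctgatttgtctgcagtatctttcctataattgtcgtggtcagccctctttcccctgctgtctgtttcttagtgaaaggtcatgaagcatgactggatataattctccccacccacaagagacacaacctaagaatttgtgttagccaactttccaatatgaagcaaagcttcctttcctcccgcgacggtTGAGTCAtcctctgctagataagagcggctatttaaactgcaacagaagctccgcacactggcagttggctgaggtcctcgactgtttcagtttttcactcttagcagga

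Cd68, the class D member, was the one gene above its day 0 level at the end. It encodes macrosialin, a heavily glycosylated protein of late endosomes and lysosomes that is used as a marker of both macrophages and osteoclasts. It read 12.86, 12.61, 12.80, 13.20 and 13.23 at days 0, 1, 2, 3 and 5. The 2 latest arrays were the highest and the day 1 array the lowest. It was at 0.36 above day 0 at day 5, within the yardstick. After scaling to the median level of reference genes it was at -0.07, and at 0.32 after centring on their median deviation from their own means. Against day 1 it was 0.62 higher at day 5, as far up as 12.6% of the measured genes. Its promoter is shown beside that of Olr1 because these were the members whose windows held the AP-1 letters.
Cd68 promoter (chr11:69666121-69666420, - strand): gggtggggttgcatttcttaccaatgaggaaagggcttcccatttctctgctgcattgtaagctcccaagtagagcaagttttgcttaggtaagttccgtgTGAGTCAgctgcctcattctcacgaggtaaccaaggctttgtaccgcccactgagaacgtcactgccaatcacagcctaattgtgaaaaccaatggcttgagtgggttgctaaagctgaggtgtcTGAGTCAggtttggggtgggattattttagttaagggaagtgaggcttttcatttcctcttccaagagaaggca

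Promoters of 8 of the 10 members were found in the RefSeq table by symbol. Several motifs of factors at work in macrophages and osteoclasts were searched on both strands, a choice made after the values and the sequences had been seen. The AP-1 letters TGAGTCA stood in the windows of Olr1, 60 bases before the start, and of Cd68, 149 and 24 bases before it. They were found in 5.20% of all 32851 promoter windows of the table. Part of a PU.1 element, GAGGAAG, stood 146 bases before the start of Marco and, on the opposite strand to the one printed, 168 and 36 bases before that of Mrc1, and was found in 13.6% of windows. The E-box CACGTG read by MITF and TFE factors (7.15% of windows) and the MAF half-site TGCTGAC (4.67%) had no match in the 8 windows. None of these letters overlap another motif.

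**Figure D3:**
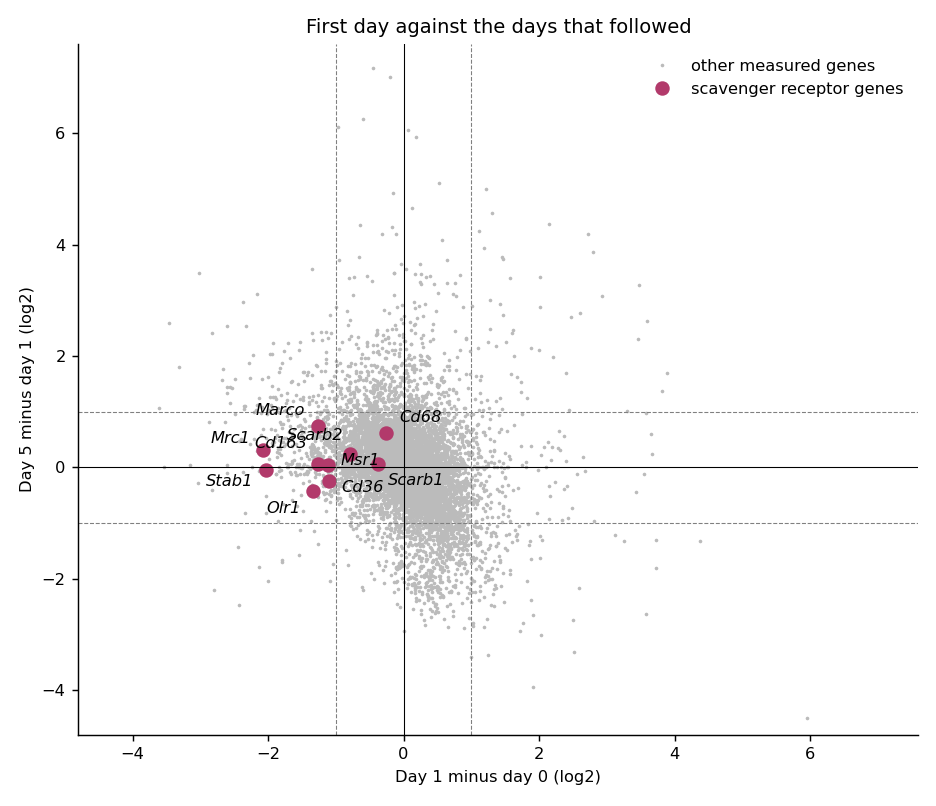
Difference of day 1 from day 0 (x axis, log2) against difference of day 5 from day 1 (y axis, log2), with 1 grey point per measured gene and the scavenger receptors in colour. Dashed lines mark 2-fold. The 10 receptors lie left of 0 on the x axis, from -2.07 to -0.25, and between -0.42 and 0.75 on the y axis. Both axes use the day 1 array, so some opposite slope over all genes is built in.

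Among themselves the profiles were compared by the root mean square distance over the 5 arrays after each gene was centred on its own mean. The closest pair was Msr1 and Cd36 (0.13), followed by Cd36 and Olr1 (0.17) and Msr1 and Scarb2 (0.18). Mrc1 and Stab1 lay at 0.26. Over all measured genes, the same distance named the nearest profiles of the 3 receptors with the widest range. Nearest to Marco were Nxpe5 (0.25), the interferon-induced Oasl2 (0.28) and the endothelin receptor Ednrb (0.30), all with their lowest value at day 2. Nearest to Mrc1 were the G protein regulator Rgs18 (0.10), the pseudogene Nlrp1c-ps (0.10) and the semaphorin and VEGF receptor Nrp1 (0.12). Nearest to Stab1 were the organic anion transporter Abcc3 (0.08), the inflammasome sensor Nlrp3 (0.09) and the galactosyltransferase B4galt6 (0.14). These are distances over 5 arrays among 12049 genes and are given as a description.

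**Figure D4:**
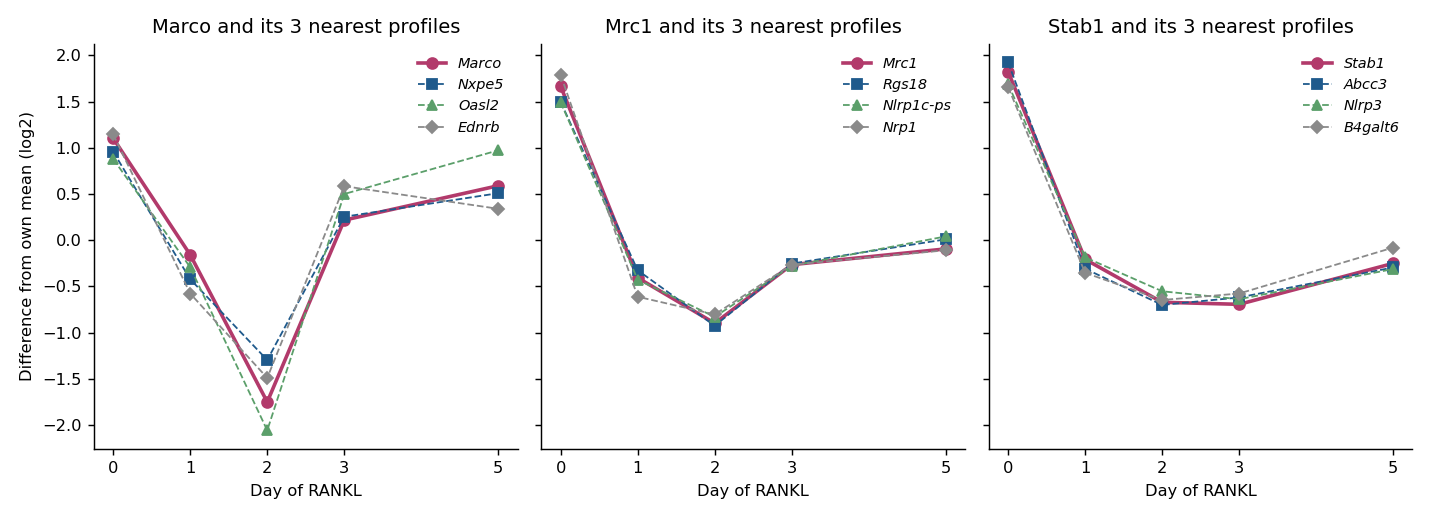
Log2 value minus the gene's own mean over the arrays (y axis) by day of RANKL (x axis) for Marco, Mrc1 and Stab1, each with its 3 nearest measured genes as dashed lines. Marco and its neighbours dip at day 2, and Mrc1 and Stab1 and theirs are highest at day 0.

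Scavenger receptors outside the set were mixed. Of 17 other scavenger receptors and related proteins of several families, 10 were measured. At day 5, 2 were at least 2-fold above day 0, 2 below and 6 neither, with a median of -0.48, and at day 1, 0 were above and 3 below (median -0.48). Of all measured genes 6.78% were above and 6.56% below at day 5, and 2.91% and 4.17% at day 1. Fcrls, an Fc receptor-like scavenger receptor of mouse macrophages, was lowest (-3.53 at both day 1 and day 5). It read 8.81 at day 0, a tied 5.27 at days 1, 3 and 5 and 4.56 at day 2. These later values are dim, which limits the size of its difference. Lrp1, the large endocytic receptor for apolipoprotein E and protease complexes, was next at day 5 (-1.61, and -0.96 at day 1). Higher at day 5 were Scarf1 (1.34), which binds acetylated LDL, and Ssc5d (2.49), a protein with scavenger receptor cysteine-rich domains. Scarf1 was at -0.62 at day 1, so it crossed its day 0 level later. The liver endothelial relative of Stab1, Stab2, read 4.20 on each array, below the level filter.

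Genes that act with the receptors were counted in the same way, where 6.78% of measured genes were higher and 6.56% lower at day 5. At day 1 those shares were 2.91% and 4.17%. Counts of 0 or 1 in lists of this size are not far from them. Of 14 measured partners and neighbours in the membrane, 1 was higher at day 5, 3 lower and 10 neither (median -0.38), and 0, 3 and 11 at day 1 (median -0.48). Lower at day 5 were Tlr2 (-1.12), Fyn (-1.10), a kinase that signals from Cd36, and the tetraspanin Cd81 (-1.21). The higher one was the integrin chain Itgb3 (6.12), which is also an osteoclast marker. Lamp1 (-0.43), Lamp2 (-0.33) and Cd63 (0.37), which share the lysosome membrane with Scarb2 and Cd68, were within 2-fold. Of 15 measured genes that handle lipid after uptake, 2 were higher, 0 lower and 13 neither at day 5 (median 0.06). The sterol exporter Abcg1 (2.50, and 2.39 at day 1) and the lipoprotein receptor Vldlr (1.25) were the higher ones. The ester hydrolase Nceh1 (-1.40) and the exporter Abca1 (-1.14) were below day 0 at day 1, while at day 5 they read -0.27 and -0.05.

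Mrc1 and Cd163 are often read with genes of alternative activation and of haem breakdown. Of 10 measured genes of alternative activation, 0 were higher, 4 lower and 6 neither at day 5 (median -0.69). At day 1, 0 were higher and 3 lower (median -0.48). Of all measured genes 6.78% were higher and 6.56% lower at day 5, and 2.91% and 4.17% at day 1. The arginase Arg1 (-1.73), the chitinase-like Chil3 (-1.53) and the interleukin 4 receptor Il4ra (-1.40) were lowest. Chil3 was at 0.43 at day 1, so its timing differed from that of Il4ra, which was at -1.29 there. Of 9 measured haem genes 1 was higher, 1 lower and 7 neither at day 5 (median -0.10), and 0, 3 and 6 at day 1 (median -0.60). A count of 1 of 9 at day 5 is not far from the shares of all measured genes. The haem oxygenase Hmox1 was at -1.52 at day 5 and -2.11 at day 1, and haptoglobin, Hp, at 1.08 and -1.21.

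Transcription factors known to act on scavenger receptor genes were mostly within 2-fold of day 0. Of 14 measured, 2 were higher at day 5, 2 lower and 10 neither (median -0.06), and at day 1, 0 were higher and 2 lower (median -0.29). Of all measured genes 6.78% were higher and 6.56% lower at day 5, and 2.91% and 4.17% at day 1. A count of 2 of 14 is not far from those shares. PU.1, Spi1, which macrophages and osteoclasts both need, was at 1.10, and the liver X receptor Nr1h3 at 1.16. Lower were Maf (-1.27, and -2.61 at day 1), a factor of resident macrophages, and the lipid-sensing Pparg (-1.05, and -0.14 at day 1). Mitf (0.05), Tfeb (0.03) and Tfe3 (-0.44), the factors of lysosomal genes, were within 2-fold at day 5. With the arrays scaled to the median level of reference genes all differences of day 5 from day 0 shifted by -0.43. This turns the sign of those between 0 and 0.43 in this and the preceding paragraphs. That median level rested on different genes on the 2 arrays. Centring on the reference genes' median deviation from their own means shifted the differences by only -0.04.

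**Figure D5:**
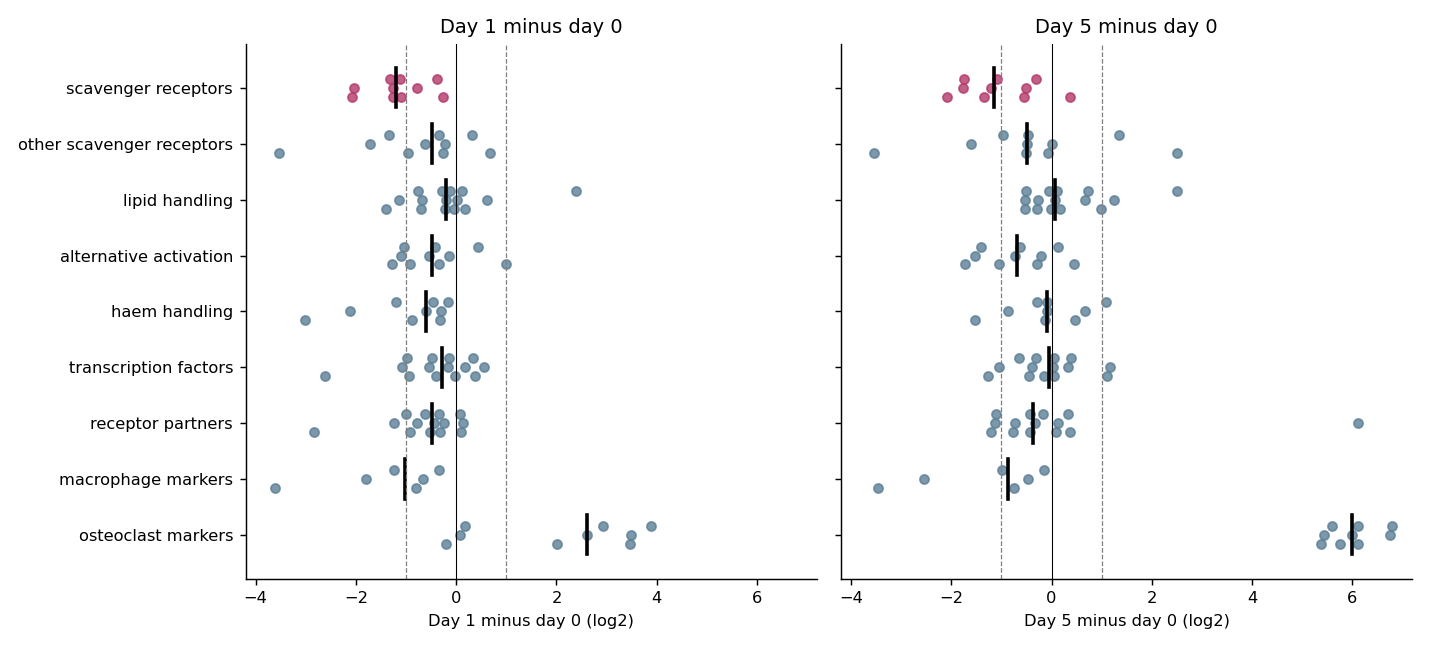
Differences of day 1 from day 0 (left) and of day 5 from day 0 (right) on the x axes (log2) for the measured genes of each list (y axis). Each point is a gene, black bars are list medians and dashed lines mark 2-fold. The scavenger receptor medians are -1.19 and -1.15, and the osteoclast markers lie far to the right.

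Other cells that can carry these receptors were checked by their markers, and their part in the results was not tested. Beside the counts below, 2.91% of all measured genes were at least 2-fold higher and 4.17% lower at day 1 than at day 0. At day 5 the shares were 6.78% and 6.56%. Endothelial cells use Stab1, Cd36 and Scarb1, and of 8 endothelial markers Pecam1, Tek, Tie1, Stab2 and Lyve1 were below the level filter. Of the 3 measured, Cdh5 was at -1.29 at both day 1 and day 5 and Vwf at 1.87 at day 5, and the summed signal of the list was 8.42 at day 0, 7.95 at day 1 and 8.71 at day 5 on the log2 scale. Of 6 adipocyte markers, Adipoq, Plin1, Cidec and Lep were below the filter and Plin4 read 5.30 on each array. Fabp4, which is also among the genes that handle lipid after uptake, was at 0.99 at day 5. Platelets carry Cd36, and of the 3 measured platelet markers Ppbp was at -1.34 at day 1 and Pf4, which macrophages also express, at -0.36. The summed signal of all 4 platelet markers with a row was 12.39 at day 0, 11.97 at day 1 and 11.64 at day 5. Most of this sum was Pf4, which alone read 12.23, 11.87 and 11.55 on those arrays, so it is not specific to platelets. None of 7 measured granulocyte markers was 2-fold lower at day 1, while 4 of 7 were at day 5, with S100a9 (-1.38), Ngp (-1.38) and Elane (-1.27) lowest. The summed signal of all 8 granulocyte markers with a row was 10.62 at day 0, 10.79 at day 1 and 9.49 at day 5. Of 4 measured dendritic cell markers Itgax was higher at day 1 and at day 5 (1.33) and 3 were neither. Of 2 measured stromal markers Dcn was higher (3.26 at day 1 and 1.93 at day 5) and 1 was neither. None of 4 B cell and 1 of 5 T cell markers with a row passed the filter. Of 6 measured macrophage markers 3 were lower at day 1, 4 at day 2, 3 at day 3 and 2 at day 5. The 2 at day 5 were Fcgr1 (-2.54) and Cx3cr1. Of all measured genes 5.25% were lower at day 2 and 7.50% at day 3. The summed signal of the macrophage markers was 14.17 at day 0, 13.20 at day 1 and 13.47 at day 5, so it too was highest on the day 0 array. Of 12 reference genes with a row, Tfrc (2.43) and Sdha (1.10) were higher at day 5 and 10 were neither (median 0.03).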

How the data were processed

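Mouse osteoclast cultures were measured with 1 Affymetrix array at each of 5 days. The deposited log2 values were made by the authors with RMA in the oligo package under R 3.4.0, per the submitters' processing notes. RMA corrects background, quantile-normalises the arrays and combines probes by median polish, which hides shifts shared by all genes, narrows differences of dim genes and gives exact ties. The authors' genome build, probe annotation and level of summary are not stated in these sources. Per the labels, 5 ng of total RNA was amplified with the WT Pico kit.

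Of 41345 rows, 23521 named 1 gene in the platform annotation, 1814 several and 16010 were not listed. Where a gene had several rows, the one brightest on average was used, giving 22180 genes. Each member had 1 row. Differences between arrays were taken from the values as deposited, counted at 2-fold and summarised by counts and medians. No p-values were computed. Counting and profile distances were tested on simulated data. The members, the 17 companion and marker lists (177 entries, 18 with no row analysed here) and the rules were chosen with earlier results of these data known. Named genes were all members, up to 3 genes each way per list that passed 2-fold at day 5, the 3 nearest profiles of the 3 widest-ranging members, and fixed macrophage and osteoclast markers. Other genes named from the lists were picked after their values were seen. Python 3.11.15, numpy 2.4.6, pandas 2.3.3 and matplotlib 3.10.9 were used.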

Additional observations from a re-analysis of the deposited data

How the results depend on the processing

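Every value rests on 1 array per day, and leaving out a replicate could not be done. No paired analysis was possible because each day had 1 array. The counts of receptors at least 2-fold from day 0 or day 1 stayed within 1.5 times under the scaling alternatives and the stricter level filter. Averaging a gene's rows or dropping the filter could not change these counts, since each receptor had 1 row and all passed the filter. At 3-fold in place of 2-fold, 3 receptors were lower at day 5 and 2 at day 1 than at day 0, with 2.22% and 1.34% of measured genes as far down, and at 1.5-fold 2 were higher at day 5 than at day 1, with 13.4% of measured genes as far up. Day 3 in place of day 5 gave 7 receptors lower than day 0.

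Scaling to the median level of 12 reference genes shifted all differences of day 5 from day 0 by -0.43 and gave 447 measured genes higher and 1752 lower, against 817 and 791 as deposited. The receptor median became -1.58, Marco -0.95 and Cd68 -0.07. The middle of the reference levels lay between Hprt (11.17) and Sdha (11.19) at day 0, but between Polr2a (11.45) and Pgk1 (11.77) at day 5. This shift thus follows a change of rank, while the median of the reference genes' own differences was 0.03. Centring on the reference genes' median deviation from their own means was added after seeing the data. It shifted all differences of day 5 from day 0 by only -0.04 and gave a receptor median of -1.19 and Cd68 at 0.32. Of the differences of single receptors, 124 values under alternatives moved by less than the yardstick SD and 16 by more. These values are not separate checks. Each scaling shifts all receptors by the same amount, and averaging rows could not move receptors with 1 row. Against day 1, Msr1 and Scarb2 read -0.51 and -0.43 at day 3. Dim rows limit Olr1 and Cd163. They also limit genes named from the companion lists, such as Vldlr (4.71 at day 0), Ssc5d (5.10 at day 0), Chil3 (4.52 at day 5) and Elane (4.52 at day 5).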

Other observations

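Several genes of the companion lists were at least 2-fold below day 0 at day 1, like most of the receptors, but were within 2-fold of it or higher by day 5, a group picked after the values were seen. The iron exporter Slc40a1 read 8.91 at day 0, 5.89 at day 1 and 9.38 at day 5. The receptor kinase for dying cells, Mertk, read 10.07 at day 0, 7.24 at day 1 and 9.65 at day 5. Haptoglobin, Hp, read 6.95, 5.74 and 8.03 on the same arrays, and the transglutaminase Tgm2 10.26, 9.22 and 10.70. Among the receptors, Marco was of this kind, 0.75 above its day 1 value and -0.51 from day 0 at day 5. Stab1, Mrc1 and Msr1 stood closer to their day 1 level at day 5, at -0.04, 0.31 and 0.04 from it. Each value is from 1 array, and no explanation was tested.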
